A study of Ovis aries with 32 samples.

Results

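The genes described here encode heat shock proteins of the cytosol and of mitochondria, measured by RNA sequencing in 4 tissues of the Tan sheep, a Chinese breed that stores fat in its tail. The list of 10 names was HSPA8, HSP90AA1, HSP90AB1, HSPB1, HSPH1, DNAJB1, DNAJA1, HSPD1, HSPE1 and HSPA9, and a gene was a member when the name in the deposited table equalled one of these. By that rule 7 of the 10 were found among 30722 table entries, of which 17372 carry a name. They are HSPA8 (ENSOARG00020020443), HSPA9 (ENSOARG00020016252), HSP90AA1 (ENSOARG00020012664), HSP90AB1 (ENSOARG00020024426), HSPH1 (ENSOARG00020008491), DNAJB1 (ENSOARG00020000632) and HSPB1 (ENSOARG00020023827). DNAJA1, HSPD1 and HSPE1 matched no entry by name and were not analysed here. All sheep were males aged 3 months and were penned singly. The control diet (CON) was a basal pellet, and the other diet (SA) was that same pellet with 1% succinic acid on a dry matter basis. Succinic acid is a metabolite of the tricarboxylic acid cycle. The trial held 24 sheep, 12 on each diet, fed for 60 days after 10 days of adaptation. Tissues labelled hypothalamus, pituitary, liver and tail fat each gave 4 libraries per diet, 32 in total. Values are TPM (transcript levels as a share of a fixed total), which are scaled for transcript length, so that levels can be compared between genes.

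Heat shock proteins are chaperones, which help other proteins fold, keep damaged proteins from clumping and pass them on for repair or degradation. HSP70 proteins bind unfolded stretches in cycles driven by ATP. J proteins start that cycle, and HSP110 proteins restart it by exchanging the nucleotide. HSP90 acts later, on kinases, steroid receptors and other nearly folded clients, and small heat shock proteins hold unfolding proteins without using ATP. Some members are made at a steady level in nearly all cells, such as HSPA8, HSP90AB1 and the mitochondrial HSPA9. Others, such as HSP90AA1, HSPH1, DNAJB1 and HSPB1, are also induced through heat shock factor 1.

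Several facts of the whole set of libraries touch the values below. In liver, transcripts of the mitochondrial genome took 20.2 to 27.8% of TPM in CON and 51.7 to 70.9% in SA. The difference was 35.6 percentage points (exact permutation test, two-sided, p = 0.0286, the smallest that 4 against 4 libraries allow, and 0.114 adjusted over the 4 tissues). Because TPM is a share of a fixed total, a larger mitochondrial share leaves less for every other transcript. In tail fat this share was 22.5 to 70.6% among CON libraries and 25.6 to 50.2% among SA libraries. The liver libraries held the hepatocyte markers and the tail fat libraries the adipocyte markers. Of 7 hypothalamic markers 6 were found by name, and 3 of these had a mean under 1 TPM in libraries labelled hypothalamus. The highest there, POMC, had a mean of 2.39 TPM, against 5.80 TPM in tail fat. Striatal neuron markers summed to 1992 to 3633 TPM in libraries labelled hypothalamus. In libraries labelled pituitary all 5 of the 7 anterior pituitary markers that were found had a mean under 1 TPM, so both tissues are called here by their label. Numbers of reads are not part of the TPM table, so the depth behind each value is unknown. The labels do not tie library numbers to sheep, and p-values measure the spread between these libraries only.

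The members fell into separate patterns of level on the control diet. HSPA8, both HSP90 genes and HSPH1 had their highest means in the libraries labelled hypothalamus or pituitary. HSPB1 ran the other way, with its highest mean in tail fat. HSPA9 and DNAJB1 passed in 1 contrast each. Over the 6 pairs of tissues and 7 members, 22 of 42 contrasts passed (limma, adjusted p under 0.05 over all genes). Tail fat library CON 2 stood far above the other 3 for all members but HSPB1, and without it 32 of 42 passed. The share of all genes called without it is not given here, so that rise cannot be read as particular to the members. In the comparison of diet effects between tissues, described below, leaving it out raised the share of all genes called from 27.0% to 38%.

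**Figure D1:**
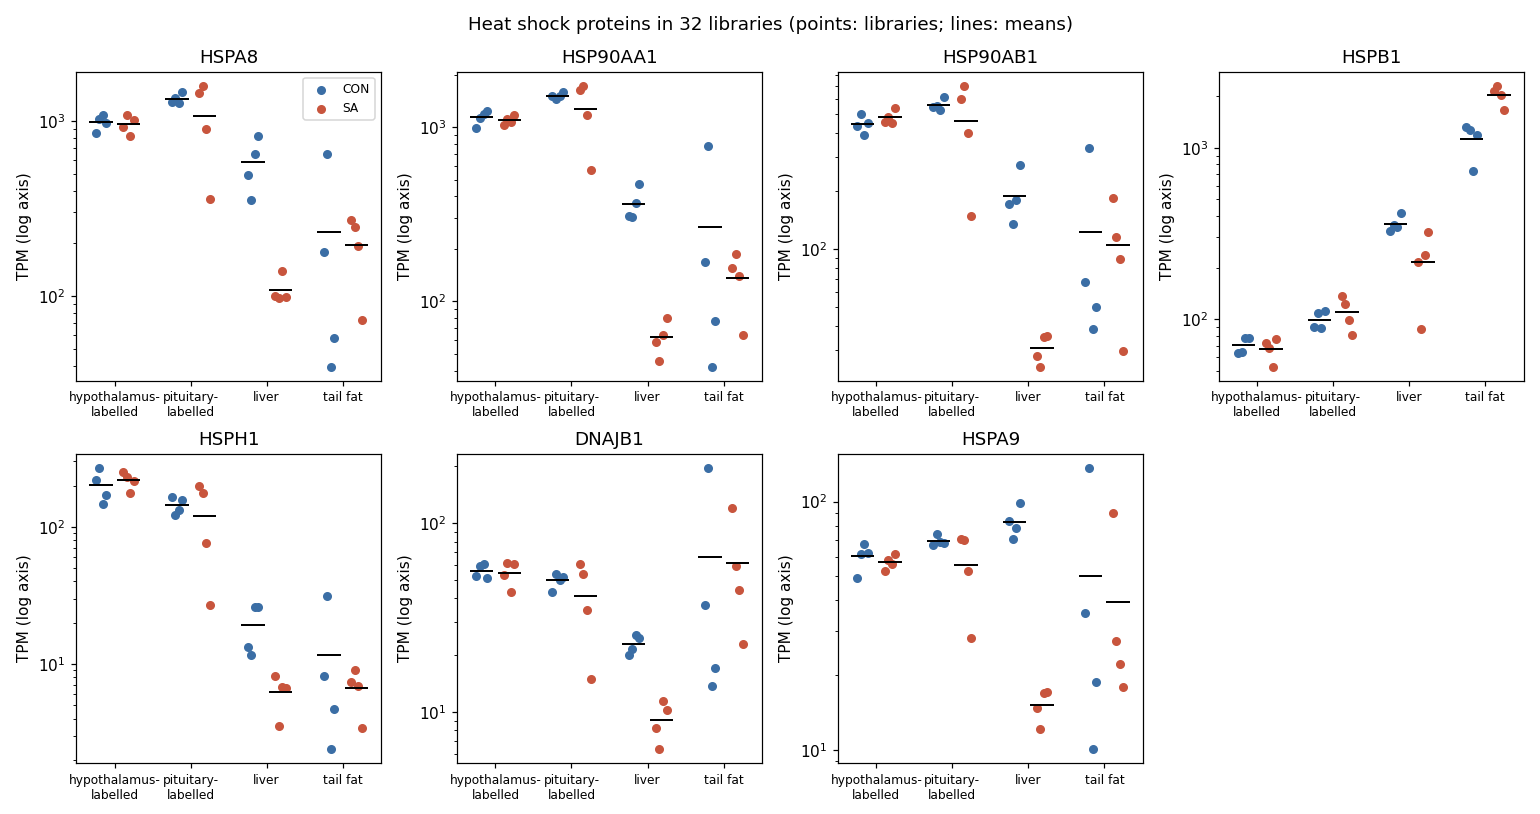
TPM of each matched heat shock protein (log axis) in the 4 tissues, with CON libraries in blue, SA libraries in red and the group mean as a line. HSPB1 was highest in tail fat (means of 1128 TPM in CON and 2036 TPM in SA), and in liver the 4 SA libraries lay below the 4 CON libraries for all 7 genes in the TPM as deposited.

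Among the HSP70 genes, HSPA8 makes the constitutive cytosolic HSP70, which also uncoats clathrin vesicles. Its mean on the control diet was 1339 ± 90.9 TPM (SD, n = 4) in pituitary-labelled, 979 ± 96.2 in hypothalamus-labelled, 579 ± 203 in liver and 231 ± 284 TPM in tail fat libraries. It ranked 42nd of all table entries in the pituitary-labelled libraries and 299th in tail fat. Tail fat was lower than each other tissue (limma adjusted p = 5.7e-05 against pituitary-labelled, 0.00026 against hypothalamus-labelled and 0.0069 against liver), whereas the 3 higher tissues did not pass against each other. With mitochondrial and ribosomal RNA removed, liver was lower than hypothalamus-labelled (-1.43, adjusted p = 0.0046) and pituitary-labelled tissue (-1.69, adjusted p = 0.0013), and both passed without tail fat CON 2 too (adjusted p = 0.043 and 0.0033). HSPA9, the HSP70 of the mitochondrial matrix that also pulls proteins through the inner membrane, had closer means. They were 82.8 ± 11.9 TPM in liver, 69.4 ± 3.37 in pituitary-labelled, 60.1 ± 7.64 in hypothalamus-labelled and 50.1 ± 58.3 TPM in tail fat libraries (SD, n = 4). Only tail fat against liver passed (limma adjusted p = 0.035), a call that was lost in 7 of the 16 fits that left out 1 library and with mitochondrial and ribosomal RNA removed (adjusted p = 0.090), where tail fat passed against hypothalamus-labelled (0.033) and pituitary-labelled tissue (0.029). Without CON 2 the tail fat mean was 21.5 ± 12.9 TPM (SD, n = 3), the span of the means went from 1.65-fold to 3.86-fold, and tail fat passed against all 3 other tissues.

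HSP90AA1 makes the inducible and HSP90AB1 the constitutive form of cytosolic HSP90. HSP90AA1 averaged 1513 ± 56.3 TPM in pituitary-labelled, 1139 ± 111 in hypothalamus-labelled, 362 ± 78.4 in liver and 267 ± 347 TPM in tail fat libraries (SD, n = 4). HSP90AB1 had the same order at lower levels, 558 ± 39.4, 442 ± 45.7, 189 ± 58.0 and 122 ± 141 TPM. For both genes liver and tail fat were lower than either brain-labelled tissue (limma adjusted p between 4.3e-05 and 0.023). Liver and tail fat did not pass against each other (adjusted p = 0.074 for HSP90AA1 and 0.051 for HSP90AB1), but did without tail fat CON 2 (2.4e-05 and 2.6e-06). Liver against hypothalamus-labelled lost the call for HSP90AB1 without hypothalamus-labelled CON 2 (adjusted p = 0.051) or liver CON 2 (0.065).

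HSPH1, an HSP110 that exchanges nucleotide for HSP70, spanned 17.3-fold between the highest and lowest tissue mean, or 39.4-fold without tail fat CON 2. It averaged 201 ± 54.6 TPM in hypothalamus-labelled, 144 ± 19.9 in pituitary-labelled, 19.2 ± 7.75 in liver and 11.6 ± 13.3 TPM in tail fat libraries (SD, n = 4). Liver or tail fat minus a brain-labelled tissue was -4.50 to -2.92 on the log2(TPM + 1) scale (limma adjusted p of 4.7e-05 or less). DNAJB1, the main J protein partner of HSP70 under stress, averaged 65.9 ± 87.1 TPM in tail fat, 56.1 ± 4.75 in hypothalamus-labelled, 49.8 ± 4.71 in pituitary-labelled and 22.97 ± 2.58 TPM in liver libraries (SD, n = 4). Of its 6 contrasts only liver against hypothalamus-labelled passed (limma adjusted p = 0.047), and this was lost in 13 of the 16 fits that left out 1 library. The fits pool the spread over the 4 tissues. Without a pituitary-labelled library the difference stayed at -1.25, and the limma adjusted p was 0.054 to 0.057. On the log scale tail fat lay below hypothalamus-labelled tissue (-0.60, not passing), because CON 2, at 196 TPM, carries the tail fat mean, which was 22.6 ± 12.6 TPM (SD, n = 3) without it. Tail fat then passed as lower than hypothalamus-labelled (-1.39, adjusted p = 7.0e-05) and pituitary-labelled tissue (-1.22, adjusted p = 0.00023). With mitochondrial and ribosomal RNA removed, liver was also lower than pituitary-labelled tissue (adjusted p = 0.0015) and tail fat higher than liver (1.37, adjusted p = 0.0047).

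HSPB1 makes the small heat shock protein HSP27, which also binds actin filaments. Its mean was 1128 ± 267 TPM in tail fat, 361 ± 38.5 in liver, 99.3 ± 12.0 in pituitary-labelled and 70.7 ± 8.07 TPM in hypothalamus-labelled libraries (SD, n = 4). Tail fat was higher than hypothalamus-labelled tissue by 3.95 ± 0.22 (SE) on the log2(TPM + 1) scale, 15.4-fold in the fit (limma adjusted p = 3.6e-11), and higher than liver by 1.61 ± 0.22 (SE), 3.05-fold (adjusted p = 1.1e-05). All its contrasts passed except pituitary-labelled against hypothalamus-labelled (adjusted p = 0.20). HSPB1 made up 2.07 to 2.92% of the members' summed TPM in the brain-labelled CON libraries, 19.5 to 28.5% in liver and 37.5 to 84.0% in tail fat.

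The contrasts of members must be read against how many genes differed at all. Liver and hypothalamus-labelled libraries differed in 5 of 7 members, where 68.2% of 15929 genes were called. Tail fat differed from hypothalamus-labelled in 5 of 7 (67.4% of genes) and from pituitary-labelled in 5 of 7 (71.4%), and liver differed from pituitary-labelled in 4 of 7 (73.1%). Tail fat and liver differed in 3 of 7 members (44.1% of genes). Between the 2 brain-labelled tissues no member was called, where 13.1% of genes were. The spread of each gene was pooled over the 4 tissues, so the wide spread of tail fat also entered contrasts without it. HSPA8 was 851 to 1074 TPM in hypothalamus-labelled and 1265 to 1461 TPM in pituitary-labelled CON libraries. The CON libraries of these 2 tissues did not overlap for HSP90AA1, HSP90AB1 and HSPB1 either, and overlapped for HSPH1, DNAJB1 and HSPA9. How many of all genes did so was not computed, so it cannot be said whether these members stand out. On the SA diet the order of liver and tail fat was not the same: HSP90AA1 and HSP90AB1 were then higher in tail fat, by 1.05 (limma adjusted p = 0.021) and 1.49 (adjusted p = 0.013) on the log2(TPM + 1) scale, and HSPA9 by 1.02 (adjusted p = 0.044).

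In liver, 6 of the 7 members fell with succinic acid: HSPA8, HSPA9, HSP90AA1, HSP90AB1, HSPH1 and DNAJB1, of which HSPH1 and DNAJB1 lost the call under 2 other scalings. The ratio of the SA mean to the CON mean was 0.187 for HSPA8, 0.184 for HSPA9, 0.171 for HSP90AA1, 0.162 for HSP90AB1, 0.328 for HSPH1 and 0.396 for DNAJB1. HSPB1 did not pass, and its difference changed sign under those scalings. Most genes went the same way on this scale: 59.1% of the 11582 genes tested were called lower and 5.21% higher, the median change over all of them was -0.83 on the log2(TPM + 1) scale, and that over the 7 members was -2.35. The SA and CON libraries did not overlap for any of the 7 members, nor for 58.3% of all genes.

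HSPA8 stood at 492, 352, 650 and 823 TPM in CON livers 1 to 4 and at 99.95, 97.5, 138 and 98.5 TPM in SA livers 1 to 4. SA 3 lay above the other SA libraries, which were close together. The change was -2.35 ± 0.32 (SE, limma, adjusted p = 0.00024), a 5.10-fold drop in the fit. HSPA9 stood at 83.3, 70.5, 78.6 and 98.9 TPM in CON and at 14.8, 12.2, 17.0 and 17.1 TPM in SA. The CON libraries lay far above the SA libraries, and the change was -2.37 ± 0.22 (SE, limma, adjusted p = 5.2e-05).

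HSP90AA1 stood at 307, 304, 366 and 472 TPM in CON livers and at 58.2, 45.5, 64.2 and 79.95 TPM in SA livers. CON 4 and SA 4 were each the highest of their group. The change was -2.53 ± 0.28 (SE, limma, adjusted p = 9.3e-05). HSP90AB1 stood at 171, 135, 179 and 271 TPM in CON and at 27.7, 24.5, 34.8 and 35.5 TPM in SA. Its change of -2.56 ± 0.28 (SE, limma, adjusted p = 9.1e-05) was near the low end of all genes tested, of which 2.41% had a lower one.

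HSPH1 stood at 13.4, 11.7, 26.0 and 25.8 TPM in CON livers and at 8.13, 3.55, 6.80 and 6.71 TPM in SA livers. CON 1 and CON 2 were less far from the SA libraries than CON 3 and CON 4. The change was -1.43 ± 0.33 (SE, limma, adjusted p = 0.0038). DNAJB1 stood at 20.1, 21.6, 25.5 and 24.7 TPM in CON and at 8.24, 6.38, 11.5 and 10.3 TPM in SA, a change of -1.27 ± 0.22 (SE, limma, adjusted p = 0.00082).

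HSPB1 stood at 325, 356, 347 and 415 TPM in CON livers and at 217, 88.1, 238 and 324 TPM in SA livers. The groups were barely separate, between CON 1 at 325.39 and SA 4 at 324.37 TPM. The change was -0.87 ± 0.40 (SE, limma, adjusted p = 0.077), close to the median of all genes, as 48.1% of genes had a lower change. Without SA 2 the change was -0.49 (adjusted p = 0.066). Without SA 4 it was -1.11 and passed (limma adjusted p = 0.031), as it did at -0.87 with the spread estimated over all 32 libraries (adjusted p = 0.013). SA 2 was the lowest of all 8 livers for each of the 7 members, and it had the largest mitochondrial share, 70.9%.

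**Figure D2:**
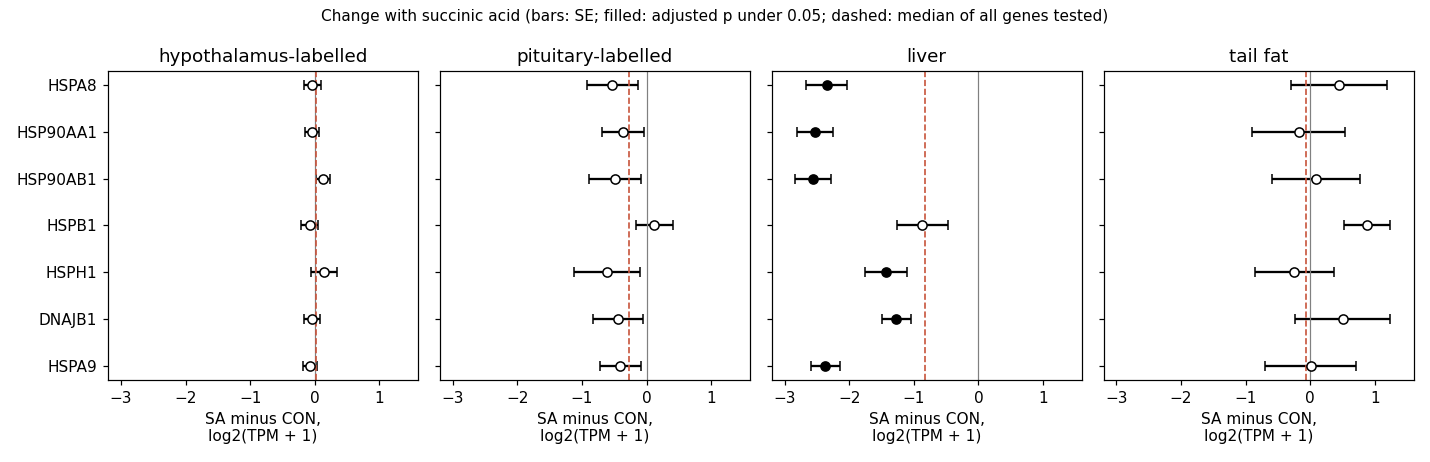
Change with SA of each gene in each tissue, in log2(TPM + 1) units, with the standard error as a bar, a filled point where the limma adjusted p was under 0.05 and the median of all genes tested as a dashed line. Filled points appear in liver only, where 6 genes lie between -2.56 and -1.27 and HSPB1, at -0.87, lies beside the median of -0.83.

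How far the liver values move with the scaling was computed in 2 ways. Quantile normalization brought the median change of all genes from -0.83 to -0.09, and taking out mitochondrial and ribosomal RNA before rescaling brought it to 0.002. Under these scalings 37.4% and 29.4% of all genes were called in either direction, and 2440 of 11582 and 1767 of 12811 genes were called lower. HSPA8, HSPA9, HSP90AA1 and HSP90AB1 were called lower under both, by -1.34 and -1.28, -1.35 and -1.34, -1.51 and -1.47, and -1.52 and -1.51 (limma adjusted p between 0.000735 and 0.014). HSPH1 was at -0.56 and -0.48 (adjusted p = 0.17 and 0.24) and DNAJB1 at -0.35 and -0.27 (adjusted p = 0.17 and 0.39), so that neither was called. HSPB1 turned to 0.08 and 0.20 (adjusted p = 0.79 and 0.56).

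**Figure D3:**
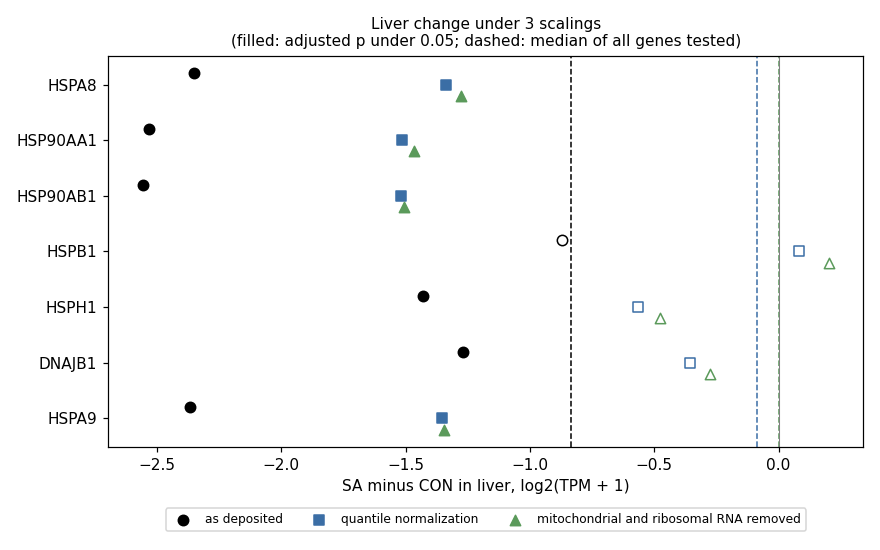
Difference SA minus CON in liver for each gene as deposited (black), after quantile normalization (blue) and after taking out mitochondrial and ribosomal RNA (green), on the log2(TPM + 1) scale, filled where the limma adjusted p was under 0.05, with dashed lines at the medians of all genes. HSPA8, HSPA9, HSP90AA1 and HSP90AB1 stay filled at -1.28 or lower, while HSPH1 and DNAJB1 lose the call and HSPB1 crosses 0.

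Marker levels moved with the liver change too, and their part in it was not tested. The 5 hepatocyte markers summed to 61770 to 82140 TPM in CON and 4904 to 19650 TPM in SA, with all 5 means lower. The 4 endothelial markers summed to 46.7 to 61.3 TPM in CON and 5.50 to 11.2 TPM in SA, and the 5 macrophage markers to 287 to 458 and 92.2 to 274 TPM. Of the macrophage markers 1, AIF1, had a higher mean in SA (54.45 against 50.36 TPM). The 8 immediate early genes, which cells switch on soon after a stimulus, summed to 256 to 436 TPM in CON and 66.7 to 420 TPM in SA. Between 11504 and 12057 genes reached 1 TPM in CON livers and between 10216 and 10611 in SA livers. In bulk tissue, fewer cells of a type and less RNA per cell cannot be told apart. These sums are TPM as deposited, in which a larger mitochondrial share leaves less for every marker too.

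A ratio of 2 members inside a library does not depend on what other transcripts take of the total. In liver the ratio of HSP90AA1 to HSP90AB1 was 1.95 in CON and 2.01 in SA, a log2 difference of 0.04, and that of HSPA9 to HSPA8 was 0.149 in CON and 0.141 in SA, a log2 difference of -0.08 (geometric means, n = 4 each; exact permutation p = 0.69 and 0.83). The ratio of HSPH1 to HSPA8 was 0.0326 in CON and 0.0561 in SA, a log2 difference of 0.78, with log2 ratios of -5.20 to -4.65 in CON and -4.78 to -3.62 in SA. In tail fat it went the other way, from 0.0575 to 0.0359, a log2 difference of -0.68. Each gave an exact permutation p of 0.057, or 0.34 adjusted over the 12 tests of 3 pairs in 4 tissues, and none of the 12 passed. The smallest p that this test allows for 4 against 4 libraries is 0.0286. After adjustment over 12 tests a lone ratio at that p could not pass, so these tests cannot show that a ratio was unchanged.

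**Figure D4:**
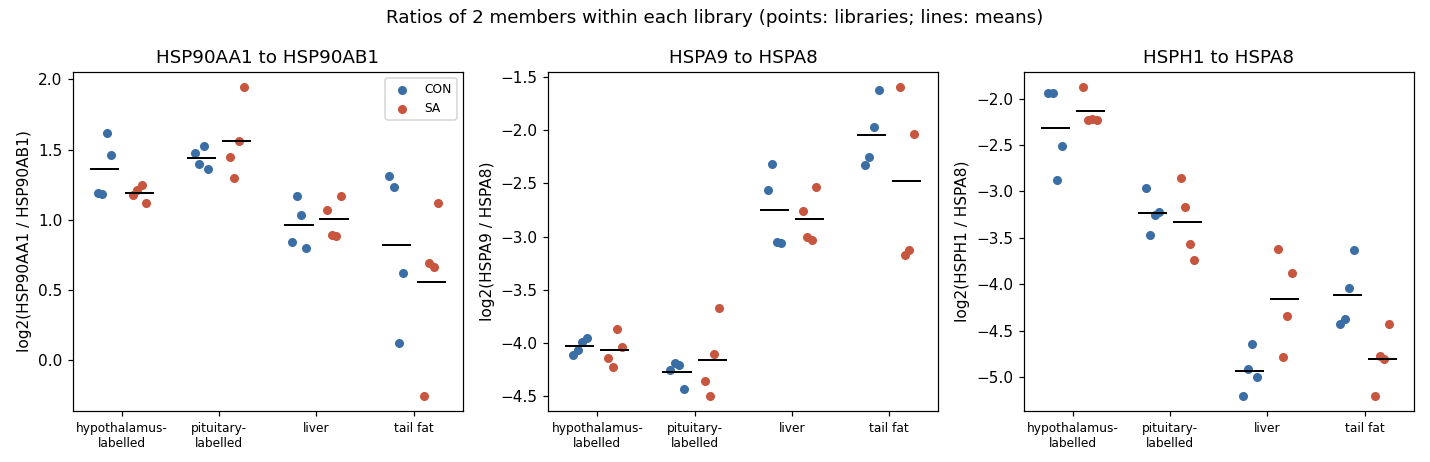
Log2 ratio of the TPM of 2 members within each library, for 3 pairs and 4 tissues, with CON in blue, SA in red and group means as lines. In liver the means of HSP90AA1 to HSP90AB1 are 0.96 in CON and 1.01 in SA, whereas those of HSPH1 to HSPA8 are -4.94 and -4.16 with overlapping points.

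In the libraries labelled hypothalamus the members hardly moved. Their differences lay between -0.08 for HSPB1 and 0.14 for HSPH1 on the log2(TPM + 1) scale, and none passed (limma adjusted p between 0.95 and 0.99). Of the 14126 genes tested 0% were called, and 493 had an unadjusted p under 0.05, none of them a member. No member had groups that did not overlap, against 1.96% of all genes. HSPA8, for example, was 851 to 1074 TPM among CON and 817 to 1084 TPM among SA libraries, and HSP90AA1 was 985 to 1240 and 1029 to 1174 TPM. The SE of these differences was 0.11 to 0.20, smaller than in any other tissue for each member.

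In the libraries labelled pituitary no member passed either (limma adjusted p between 0.75 and 0.83), where 0% of 14472 genes were called and 218 had an unadjusted p under 0.05. Non-overlapping groups occurred in 1.17% of genes and in no member. The differences were between -0.62 for HSPH1 and -0.37 for HSP90AA1 in 6 members and 0.12 for HSPB1, against a median of -0.27 over all genes. Much of the fall in the 6 members rests on SA 4. SA 4 was the lowest of 8 for all 7 members, with HSPA8 at 360 TPM against 899 to 1581 TPM in the other 7, HSP90AA1 at 569 against 1176 to 1723 and HSPH1 at 27.0 against 75.97 to 199 TPM. SA 4 also had a mitochondrial share of 67.5%, against 36.4 to 50.6%, and a summed level of neuron markers of 1101 TPM, against 2149 to 3463. SA 3 too lay below the 4 CON libraries for the 6 members other than HSPB1, with HSPA8 at 899 against 1265 to 1461 TPM. Its mitochondrial share was 50.6%, against 40.9 to 44.3% in CON. The part of these in the result was not tested. Without SA 4 the differences ran from -0.12 to 0.26, with a median of -0.03 over the members and -0.02 over all genes.

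In tail fat HSPB1 was the member whose groups were separate. It stood at 1314, 1274, 735 and 1188 TPM in CON and at 2137, 2298, 2043 and 1664 TPM in SA, so that every SA library exceeded every CON library. The difference was 0.88 ± 0.35 (SE) on the log2(TPM + 1) scale, a ratio of group means of 1.81, and it did not pass (limma adjusted p = 0.29). It passed at 0.77 when libraries were weighted by quality (adjusted p = 0.0097), where 25.4% of all genes were called, and at 0.88 with the spread of all 32 libraries (adjusted p = 0.038), where 11.8% were. It was 0.68 to 0.97 when any 1 library was left out, never passing, and 0.56 and 0.57 under the 2 other scalings (adjusted p = 0.16 and 0.17). In the fit without weights 0.697% of the 11185 genes tested were called, and 9.68% had groups that did not overlap.

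The other 6 members in tail fat varied more within a diet than between diets. HSPA8 stood at 178, 647, 39.5 and 58.0 TPM in CON and at 271, 246, 194 and 73.1 TPM in SA. HSP90AA1 stood at 167, 782, 42.1 and 77.1 TPM in CON and at 154, 186, 140 and 64.3 TPM in SA. CON 2 was the highest of 8 for all 6, and CON 3 was the lowest of the CON libraries for all 7 members. None passed (limma adjusted p between 0.80 and 0.997, with differences of -0.24 for HSPH1 to 0.50 for DNAJB1 and a median of -0.06 over all genes).

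DNAJB1 reached 196 TPM in CON 2 and 121 TPM in SA 1, and was between 13.8 and 59.6 TPM in the other 6. HSPA9 reached 136 TPM in CON 2 and 89.6 TPM in SA 1, and was between 10.1 and 35.5 TPM in the other 6. Those libraries also had the lowest mitochondrial shares, 22.5% and 25.6% against 36.4 to 70.6%, and the highest endothelial marker sums, 295 and 260 TPM against 73.5 to 181. CON 2 had an adipocyte marker sum of 73790 TPM, against 10900 to 25750 in the other CON libraries, and skeletal muscle markers summed to 75.3 TPM in CON 2 and 28.3 TPM in SA 1 against at most 1.44 in the other 6. Their part in the members' levels was not tested. Without CON 2 all 7 differences were positive, from 0.39 to 1.299 with a median of 0.76 against 0.21 over all genes, and none passed (adjusted p between 0.15 and 0.69).

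The differences between diets were themselves compared between tissues in one fit of 32 libraries. They differed for 5 of 7 members, where 27.0% of 16360 genes were called. The limma F-test gave an adjusted p of 0.0094 for HSP90AB1, 0.011 for HSPB1, 0.016 for HSPA9, 0.018 for HSP90AA1 and 0.025 for HSPA8. HSPH1 (0.30) and DNAJB1 (0.23) did not pass. For HSPB1 the differences were -0.87 in liver and 0.88 in tail fat, and for HSP90AB1 -2.56 and 0.09. Under quantile normalization 2 members passed, HSP90AB1 (adjusted p = 0.026) and HSPA9 (0.025), where 30.4% of all genes were called. With mitochondrial and ribosomal RNA taken out 1 passed, HSP90AB1 (0.031), where 30.9% were. HSPA8 lost the call without liver CON 3 (0.054), liver CON 4 (0.065) or liver SA 2 (0.054), and DNAJB1 gained it without tail fat CON 2 (0.0029).

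Libraries that were high for one member were mostly high for the others. After the mean of each tissue and diet was taken off, Pearson's r between pairs of the 6 members other than HSPB1 was 0.76 to 0.96 over the 32 libraries (15 pairs), and r of HSPB1 with them was 0.46 to 0.55 (6 pairs). Without tail fat these were 0.78 to 0.95 and 0.42 to 0.66. In the 8 hypothalamus-labelled libraries alone the 15 pairs ran from -0.47 to 0.93, and in the 8 pituitary-labelled ones, where SA 4 stands apart, from 0.955 to 0.998. High r was not particular to the members. Among 8590 named genes ranked by r with HSPH1 over the 32 libraries, HSPA9 (0.76) came at rank 1591 and HSPB1 (0.55) at rank 5293. Libraries also differed in their mitochondrial share, whose part in these values was not tested.

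The 6 genes most like HSPH1 by the same measure, among 8590 named genes with a mean of 5 TPM or more, were KPNA4 (r = 0.94), UBE2K (0.92), RAB6A (0.92), HSPA4 (0.92), LARP4 (0.92) and ARMC1 (0.92). HSPA4 is another HSP110, KPNA4 an importin and UBE2K a ubiquitin-conjugating enzyme. Of the members, HSPA8 came nearest to HSPH1 over the 32 libraries, at rank 44 (r = 0.90), and HSPB1 lay farthest, at rank 5293 (r = 0.55). This order depended on the libraries used. Without tail fat HSP90AB1 was nearer than HSPA8 (r = 0.89 and 0.86). In the hypothalamus-labelled libraries alone r with HSPH1 was 0.61 for HSP90AB1, 0.05 for HSPA8 and -0.47 for HSPA9. There the 6 genes above ran from 0.36 for HSPA4 to 0.805 for ARMC1.

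Partners of the members were described from 8 lists with 101 names, of which 87 were found. In liver 51 of the 78 tested were called lower and 2 higher, with a median change of -1.12 against -0.83 over all genes, of which 59.1% were called lower and 5.21% higher. With quantile normalization, where 37.4% of all genes were called, these counts were 21 lower and 13 higher. With mitochondrial and ribosomal RNA taken out, where 29.4% were called, 17 of 80 were lower and 14 higher. The counts of the single lists below are to be read against the same 59.1%.

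Of the 13 HSP90 co-chaperones tested in liver, 10 fell and none rose, where 59.1% of all genes fell. With quantile normalization 5 of them were called lower and 1 higher, and with mitochondrial and ribosomal RNA removed 3 and 1. STIP1, which hands clients from HSP70 to HSP90, went from 52.0 ± 20.5 to 6.33 ± 0.96 TPM (SD, n = 4), a change of -2.79 (limma adjusted p = 6.1e-05), and was called lower under both other scalings at -1.85 and -1.84. CDC37, which brings kinases to HSP90, went from 32.8 ± 2.85 to 9.39 ± 2.64 TPM, a change of -1.74 (-0.80 and -0.75 under the other scalings, called). Of the 12 HSP70 co-chaperones 9 fell, with BAG1, a nucleotide exchange factor, at -1.44 (-0.48 and -0.42 under the other scalings, not called). HSPBP1, another exchange factor, rose from 4.88 ± 0.91 to 8.41 ± 2.35 TPM, a change of 0.66 (limma adjusted p = 0.023). HSPBP1 was called in 4 of the 8 fits that left out 1 library, and under both other scalings (1.47 and 1.69). Under each of those scalings 3 of the 12 HSP70 co-chaperones were called lower and 1 higher.

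Among 12 other J proteins tested in liver 8 fell, a share near the 59.1% of all genes, led by DNAJB6, a suppressor of aggregation, from 26.6 ± 3.34 to 4.27 ± 0.68 TPM (SD, n = 4; change -2.39, limma adjusted p = 3.4e-05, and -1.51 and -1.49 under the other scalings, called). Of the 7 other HSP70 and HSP110 genes 5 fell, such as HSPA13, from 31.6 ± 7.78 to 5.70 ± 2.61 TPM (change -2.34, and -1.46 and -1.42 under the other scalings, called). Of 10 genes of the chaperonin TRiC and prefoldin, which fold actin and tubulin, 7 fell, with TCP1 at -2.13 (-1.07 and -1.09, called). Of 17 mitochondrial partners and proteases 11 fell and none rose, also near that share. They include TIMM44, which tethers HSPA9 to the import channel (change -1.87, and -0.9996 and -0.95, called), and TRAP1, the mitochondrial HSP90 (-1.75, and -0.88 and -0.81, called). With quantile normalization 4 J proteins were called lower and 1 higher, and 2 and 1 of the HSP70 and HSP110 genes. For TRiC and prefoldin these counts were 3 and 1, and for the mitochondrial list 4 and 3. With mitochondrial and ribosomal RNA removed they were 2 and 1, 2 and 1, 3 and 1, and 4 and 4 in the same order.

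The other small heat shock proteins were mixed in liver: of 5 tested HSPB8 was called lower (-1.24, limma adjusted p = 0.027) and HSPB11 higher (0.95, adjusted p = 0.0058). HSPB8 was not called under either other scaling (-0.34 and -0.24) or in 4 of the 8 fits without 1 library. HSPB11, a cilium protein despite its name, was called under both at 1.68 and 1.98. Of the heat shock factors 2 were tested in liver and neither passed in the TPM as deposited. Under quantile normalization both were called higher, and with mitochondrial and ribosomal RNA removed 2 of the 3 then tested were. HSF2 was at 0.46 (limma adjusted p = 0.046) and 0.63 (0.091). Of the 5 small heat shock proteins 3 were called higher and 0 lower under each scaling. Over all genes 1886 of 11582 and 1999 of 12811 were called higher.

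Outside liver 1 partner passed in the TPM as deposited. HSF4, a heat shock factor best known from the lens, went from 11.2 ± 3.13 TPM in CON to 2.08 ± 1.01 TPM in SA tail fat (SD, n = 4), a change of -2.01 (limma adjusted p = 0.0497), and was called in 1 of the 8 fits that left out 1 library. Under the other scalings it was at -1.87 and -2.495, called. With quantile normalization 2 of 81 partners in tail fat were called higher and 2 lower, where 3.71% of all genes were called. With mitochondrial and ribosomal RNA removed 2 were higher and 5 lower, where 10.2% were. Of the 83 partners tested in hypothalamus-labelled and the 82 in pituitary-labelled libraries none passed.

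HSP70 and HSP90 genes resemble others of their families in sequence. How the authors' counting shared such reads between copies could not be checked, so the split between HSP90AA1 and HSP90AB1, and between HSPA8 and its relatives, is uncertain to that extent.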

How the data were processed

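The authors deposited 1 table of TPM for 32 libraries of stranded, poly(A)-selected RNA. The submitters' processing notes name the tools fastp, HISAT2 and RSEM. For their versions, the genome build and the annotation, nothing was given in the sources used here. The deposited TPM of a library summed to between 936939 and 987320. The 8 columns of group means were not used. Members and gene lists were chosen with earlier results of these data known.

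Values were analysed as log2(TPM + 1), so a change understates that of low genes. A gene was tested in a tissue when 4 or more of its 8 libraries reached 1 TPM, with limma 3.58.1 (R 4.3.3; trend, robust), SA minus CON, two-sided, with Benjamini-Hochberg adjustment over all genes tested and a threshold of 0.05. The tissues were compared on the 16 CON libraries, with the spread of each gene pooled over the 4 tissues. The diet by tissue interaction was fitted over all 32. Fits were tested on simulated data. Ratios of members were compared with exact permutation tests of 70 splits. Pairs that needed DNAJA1, HSPD1 or HSPE1, and the genes most like HSPD1, were not run. All matched members are named. From each partner list at most 3 genes per tissue and direction with the smallest p could be named, or 1 where none passed.

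The alternatives were another pseudocount, other filters, quantile normalization, removal of mitochondrial and ribosomal RNA, array weights, no trend, a joint fit, a replicate block and leaving out each library. Leaving out each library from the comparisons of tissues and from the interaction was added after the data were seen. Library numbers were not treated as pairs.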

Additional observations from a re-analysis of the deposited data

Results flagged for a closer look

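Within each of 56 groups of 4 libraries (7 genes, 4 tissues, 2 diets), the gap between the highest or lowest library and the next was set against the group's range. Chance alone marks about 1 in 20 such groups. In 5 groups it was large. In SA liver, library 3 had HSPA8 at 138.38 TPM, where the other 3 lay between 97.5 and 99.95. In CON tail fat, library 2 had HSP90AA1 at 781.88, HSP90AB1 at 332.36 and DNAJB1 at 195.61 TPM, all from the one library with the lowest mitochondrial share of its tissue, 22.5%. In SA tail fat, library 1 had HSPA9 at 89.55 TPM, where the other 3 lay between 17.9 and 27.4.

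The difference between diets was not the same in all tissues for 5 members by the limma F-test of the interaction, with an adjusted p of 0.025026 for HSPA8, 0.0176 for HSP90AA1, 0.0094097 for HSP90AB1, 0.010505 for HSPB1 and 0.016025 for HSPA9. The mitochondrial share of TPM also differed between diets by 35.6 percentage points in liver, against 1.40 in hypothalamus-labelled, 6.70 in pituitary-labelled and -10.9 in tail fat libraries. Its part in the interaction was not tested.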

How the results depend on the processing

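The calls of HSPA8, HSPA9, HSP90AA1 and HSP90AB1 in liver held in each of the 17 alternatives, and those of HSPH1 and DNAJB1 in 15 of 17. The count of members called in tail fat was 0, and 1 (HSPB1) with array weights, where 25.4% of all genes were called, and 1 in the joint fit, where 11.8% were. The interaction count of 5 was 2 under quantile normalization (30.4% of all genes called), 1 with mitochondrial and ribosomal RNA removed (30.9%) and 4 to 6 when each library was left out. The count of 22 contrasts between tissues was 19 to 32 when each CON library was left out, with 32 without tail fat CON 2. With the replicate block the counts of members called were unchanged: 6 in liver, 0 in each other tissue, 22 contrasts between tissues and 5 interactions. Deviations of same-numbered libraries correlated at -0.34 to 0.29 between diets and at -0.28 to 0.34 between tissues, and in none of the 16 comparisons was every pair over 0.1. On the SA diet all 8 libraries correlated best with their own number between hypothalamus- and pituitary-labelled tissue and between pituitary-labelled tissue and liver, a hint from the data and not from the design. On CON at most 4 of 8 did. Signs that turned belonged to differences that had not passed, except where named, and the cause was not tested. Quantile normalization turned HSPA8 to 0.052 and HSP90AA1 to 0.048 in hypothalamus-labelled libraries, HSPB1 to 0.082 in liver, and HSPA8 to -0.070, HSP90AB1 to -0.37 and HSPA9 to -0.22 in tail fat. Removal of mitochondrial and ribosomal RNA turned HSPB1 to 0.20 in liver, HSP90AB1 to -0.22 and HSPA9 to -0.29 in tail fat, and HSPA9 to -0.15 for liver minus hypothalamus and -0.16 for liver minus pituitary. Array weights turned the pituitary-labelled HSPA8 to 0.10, HSP90AA1 to 0.076, HSP90AB1 to 0.12, HSPH1 to 0.42 and DNAJB1 to 0.19, and in tail fat HSP90AA1 to 0.18, HSPH1 to 0.055 and HSPA9 to -0.29. When each library was left out in turn, hypothalamus-labelled HSPA8 ran from -0.10 to 0.037, HSPB1 from -0.14 to 0.033 and DNAJB1 from -0.10 to 0.061, and DNAJB1 on CON ran from -1.22 to 0.020 for tail fat minus pituitary and from -0.14 to 1.103 for tail fat minus liver. In tail fat HSPA8 ran from -0.10 to 1.23, HSP90AA1 from -0.76 to 0.63, HSP90AB1 from -0.27 to 0.76, HSPH1 from -0.70 to 0.39 and HSPA9 from -0.51 to 0.70. Without both CON 2 and SA 1, a choice made after seeing the data, HSP90AA1 was at 0.54 and HSPH1 at 0.32. On the 16 SA libraries, pituitary minus hypothalamus turned to -0.12 for HSPA9, -0.038 for HSPA8 and -0.28 for HSP90AB1, liver minus hypothalamus to -1.84 and liver minus pituitary to -1.72 for HSPA9, and tail fat minus pituitary to 0.51 for DNAJB1. Tail fat minus liver turned to 0.057 for HSPH1, 1.05 for HSP90AA1, 1.02 for HSPA9, 0.70 for HSPA8 and 1.49 for HSP90AB1, and of these HSPA8 and HSPA9 had passed on CON. The TPM hold no depth, so counting error could not be given.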
